A study of Mus musculus with 16 samples.

Results

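The genes described here are 33 genes of fatty acid oxidation and of the response to the nuclear receptor PPAR-alpha. They were given as a list of gene names, drawn up with earlier results of these data known, and all 33 were found among the 33269 gene names on the array. The brightest probe stood for a gene that had several. The study measured total RNA with 16 one-colour Agilent expression arrays from female C57Bl/6 mice made cirrhotic by 40 weeks on an atherogenic high-fat diet. RNA came from hepatic inflammatory cells or from whole liver, after injection of adipose tissue-derived stem cells (ADSC) or of PBS, with 4 arrays in each of the 4 groups. The stem cells had been grown from collagenase-digested inguinal fat of GFP-transgenic mice, and 100000 of them were given at each of 2 injections under the capsule of the spleen, with tissue taken 2 weeks after the last. All 4 groups therefore shared the diet, the strain and the sex, and no group of healthy or chow-fed mice was analysed here. The ADSC arrays carry the numbers 7 to 10 and the PBS arrays 11 to 14, for cells and for liver alike. Nothing in the labels says whether a number is an animal or whether the arrays of a group came from separate animals, so p-values here measure the spread between these samples, which may be technical. The labels' text on RNA extraction speaks of tumour-infiltrating cells and of blood, and so does not settle how hepatic inflammatory cells were obtained.

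Fatty acid oxidation shortens acyl chains to acetyl-CoA. A fatty acid is first joined to coenzyme A, passed into the mitochondrion by the carnitine shuttle, and then cut by repeated rounds of dehydrogenation, hydration, a second dehydrogenation and thiolysis, with electrons handed to the electron transfer flavoprotein. Very long chains are shortened in peroxisomes, and omega oxidation in the endoplasmic reticulum begins at the other end of the chain. In hepatocytes the acetyl-CoA can be turned into ketone bodies. PPAR-alpha, encoded by Ppara, is a fatty acid sensor that works as a dimer with RXR, and its target genes include much of this pathway as well as secreted factors of fasting such as Fgf21 and Angptl4.

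The receptor pair is known to bind a direct repeat of a six-letter half-site with a single letter between, the DR1 element, so the members' promoters were read for it. RefSeq promoter windows on GRCm38.p6, from 250 bases before to 50 bases after the annotated start, were at hand for 26 of the 33 members, 28 windows in all. The windows of Cpt1b, Acaa2, Decr1, Cyp4a10, Cyp4a14, Angptl4 and Vnn1 were not used here. The motif searched, on both strands, was aggtcanaggtca. With at most 2 mismatches it was found at 3 of the 26 member genes (11.5%), at 8 of 54 other genes of the pathway (14.8%) and at 1190 of 27025 genes in all (4.4%). No member held an exact copy, against 13 of the 27025. The 3 member windows are printed because they hold the closest matches, with the 13 matched letters in capitals as they lie on the gene's strand. A match is only a match of letters and says nothing of binding.
Fabp1: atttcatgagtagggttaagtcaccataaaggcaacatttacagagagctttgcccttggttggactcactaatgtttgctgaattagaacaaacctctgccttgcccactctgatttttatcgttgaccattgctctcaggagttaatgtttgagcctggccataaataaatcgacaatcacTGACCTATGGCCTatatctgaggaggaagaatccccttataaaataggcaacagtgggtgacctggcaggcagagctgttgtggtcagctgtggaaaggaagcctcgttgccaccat
Etfa: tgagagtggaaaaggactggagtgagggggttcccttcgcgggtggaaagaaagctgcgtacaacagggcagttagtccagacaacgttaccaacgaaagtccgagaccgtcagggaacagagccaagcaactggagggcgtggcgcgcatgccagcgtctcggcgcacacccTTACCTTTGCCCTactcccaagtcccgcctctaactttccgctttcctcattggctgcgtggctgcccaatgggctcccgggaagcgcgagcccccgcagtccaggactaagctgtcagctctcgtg
Slc25a20: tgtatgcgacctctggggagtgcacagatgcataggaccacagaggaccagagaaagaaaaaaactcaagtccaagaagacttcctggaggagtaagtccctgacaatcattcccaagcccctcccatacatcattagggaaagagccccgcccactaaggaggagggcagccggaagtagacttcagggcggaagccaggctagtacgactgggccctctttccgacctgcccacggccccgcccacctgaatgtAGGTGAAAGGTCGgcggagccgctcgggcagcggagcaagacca
The Fabp1 window lies at chr6:71199629-71199928 on the plus strand, and its match, with 1 mismatch, reads AGGcCAtAGGTCA on the opposite strand from -67 to -55 relative to the start. The Etfa window lies at chr9:55512194-55512493 on the minus strand, and its match, with 2 mismatches, reads AGGgCAaAGGTaA on the opposite strand from -77 to -65. The Slc25a20 window lies at chr9:108661886-108662185 on the plus strand, and its match reads AGGTgAaAGGTCg on the gene's own strand, 6 to 18 bases after the start, again with 2 mismatches. In these 3 strings capitals mark letters that fit the motif.

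A level is given as log2 of the signal over the 75th percentile of the probes on its array, so that 0 marks that percentile. The level of a probe cannot be set against that of another probe, and only differences between samples are compared. Between 51.6% and 66.3% of spots were well above background on an array, no spot was saturated, and the number of arrays limits the precision. The sample types stood apart as labelled. All 13 measured hepatocyte markers were lower in the inflammatory cells, with a median log2 difference of -5.67, and 4 of 5 leukocyte markers were higher. Exocrine pancreas genes were also present on the cell arrays, where 10 of 10 were higher than in liver (median log2 difference 7.67), with a mean log2 level of 8.58 on ADSC array 10, 8.50 on PBS array 13 and 6.43 on PBS array 11, against -1.87 to 2.44 on the other 5 cell arrays. Results in the cells are therefore also given without those 3 arrays. Neutrophil markers separated the treatments in both sample types: their summed linear level ran from 415.2 to 622.2 in cells after ADSC, against 1282 to 2632 after PBS, and from 18.5 to 48.6 in liver after ADSC, against 90.9 to 752.6 after PBS.

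**Figure D1:**
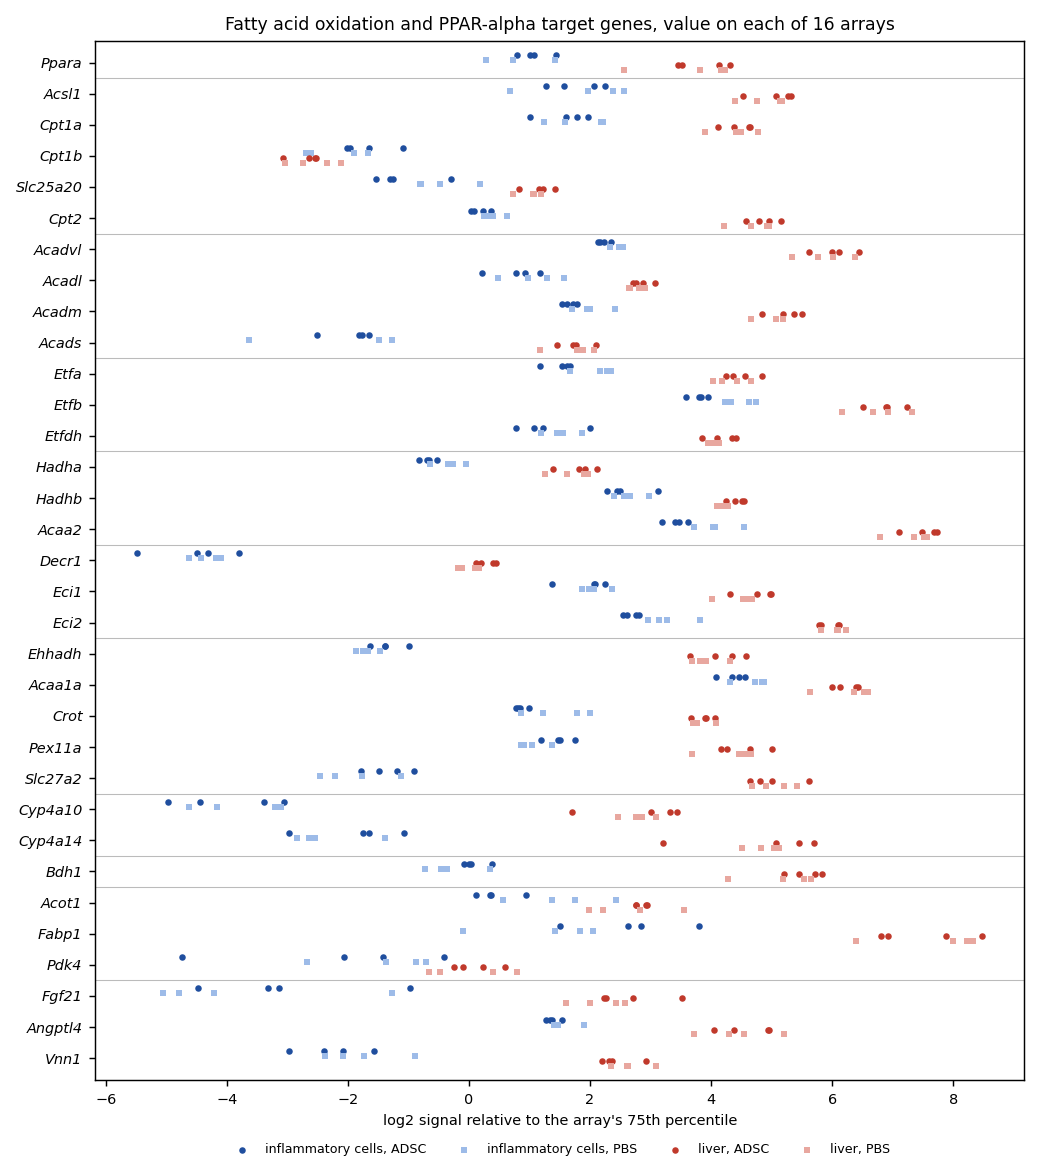
Log2 of signal over the 75th percentile of its array (horizontal axis) for the 33 members, one row a gene, with a point for each of 16 arrays: dark circles for ADSC and pale squares for PBS, in blue for inflammatory cells and red for liver. For 30 of the 33 genes every blue point lies to the left of every red point, while dark and pale points of a colour mostly overlap.

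The fatty acid oxidation genes were lower in the inflammatory cells than in whole liver almost throughout. Of the 33 members, 32 were lower and Cpt1b alone was higher, by limma with Benjamini-Hochberg adjustment over all genes at a threshold of 0.05, 8 arrays against 8. Among the 22139 genes tested, 84.3% passed that threshold, 35.2% lower and 49% higher in the cells, so a pass by itself was common. For 30 members all 8 cell arrays lay below all 8 liver arrays, which held for 23.7% of all genes tested. The median log2 difference of the members was -3.05, against 0.36 for all genes tested. In RNA from bulk samples, fewer cells of a type and less RNA per cell cannot be told apart.

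Ppara itself, the receptor, had a lowest, median and highest level of 0.28, 0.90 and 1.44 over the 8 cell arrays, against 2.56, 3.97 and 4.32 over the 8 liver arrays. The ranges did not overlap, and Ppara was 7.43-fold lower in the cells (log2 difference -2.89 ± 0.25, SE of the fit, adjusted p 1.89e-08 by limma). The receptor thus differed by about as much as the median member.

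The activation and shuttle genes did not move as a block. Cpt2, which releases the acyl group from carnitine inside the mitochondrion, measured 0.03, 0.30 and 0.63 in cells (lowest, median and highest), against 4.21, 4.86 and 5.16 in liver. It was 22.5-fold lower in the cells (log2 -4.49 ± 0.13, adjusted p 4e-13 by limma). Cpt1a, the liver form of the outer-membrane carnitine palmitoyltransferase and the controlled step of entry, measured 1.01, 1.70 and 2.22 in cells, against 3.90, 4.45 and 4.77 in liver, and was 6.59-fold lower (log2 -2.72 ± 0.19, adjusted p 1.37e-09 by limma). Acsl1, a long-chain acyl-CoA synthetase, and Slc25a20, the carnitine-acylcarnitine carrier, were lower by log2 differences of -3.12 and -1.87. Cpt1b, the muscle form of the same enzyme as Cpt1a, went the other way. Its levels were -2.70, -1.93 and -1.09 in cells, against -3.07, -2.59 and -2.12 in liver, ranges that overlapped, and the log2 difference was 0.67 ± 0.20 (adjusted p 0.00519 by limma). Its second probe, above background on 4 arrays, gave -0.14, and the call was lost under quantile normalization (log2 0.05, adjusted p 0.808 by limma).

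All 10 members that encode the mitochondrial dehydrogenases, the electron transfer proteins, the trifunctional protein and the thiolase were lower in the cells. Acadm, the medium-chain acyl-CoA dehydrogenase, measured 1.53, 1.74 and 2.41 in cells, against 4.67, 5.13 and 5.50 in liver, a 9.70-fold difference (log2 -3.28 ± 0.14, adjusted p 5.25e-12 by limma). Acadvl, its partner for very long chains, was 12.2-fold lower (log2 -3.61 ± 0.15, adjusted p 5.91e-12 by limma), Acads, for short chains, differed by -3.67 and Acadl, for long chains, by -1.88. Acaa2, the matrix thiolase, measured 3.19, 3.67 and 4.54 in cells, against 6.79, 7.50 and 7.73 in liver, and was 12.6-fold lower (log2 -3.65 ± 0.16, adjusted p 7.04e-12 by limma). The trifunctional protein that precedes it differed less: Hadha by -2.25 and Hadhb, which was 3.23-fold lower, by -1.69 ± 0.13 (adjusted p 5.85e-09 by limma). The electron transfer genes Etfa, Etfb and Etfdh were close to one another, at -2.60, -2.69 and -2.71, although a second Etfdh probe gave only -0.52.

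Among the enzymes that deal with double bonds, Eci2, an enoyl-CoA isomerase, was 8.09-fold lower in the cells (log2 -3.02 ± 0.13, adjusted p 8.77e-12 by limma) and Eci1 differed by -2.60. Decr1, the mitochondrial dienoyl-CoA reductase, was not well above background on any of the 8 cell arrays, where it measured -5.48 to -3.80, against -0.18 to 0.45 in liver. Decr1 was therefore at least 9.95-fold lower in the cells (adjusted p 5.86e-12 by limma). A bound of this kind, here and below, sets the mean of the bright group against the lowest signal that counted as above background on each array of the dim group.

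The peroxisomal members ranged from wide to narrow gaps, with log2 differences from -6.65 to -1.73, and the omega-oxidation and ketone body genes differed widely. Ehhadh, the bifunctional enzyme of peroxisomal oxidation, measured -1.87, -1.55 and -0.99 in cells, against 3.65, 3.99 and 4.58 in liver. Ehhadh was 47.4-fold lower in the cells (log2 -5.57 ± 0.15, adjusted p 2.99e-13 by limma), the smallest p among the 33. Slc27a2, a fatty acid transporter and very-long-chain acyl-CoA synthetase of peroxisomes and endoplasmic reticulum, measured -2.45 to -0.91 in cells, against 4.64 to 5.62 in liver, and was 100.5-fold lower (log2 -6.65 ± 0.21, adjusted p 6.2e-13 by limma). The other peroxisomal members differed less, Pex11a, which promotes peroxisome division, by -3.17 (adjusted p 6.98e-11 by limma), Crot, which moves shortened chains onto carnitine, by -2.69, and the thiolase Acaa1a by -1.73. Other Acaa1a probes gave -3.09 and -4.59. Any Acaa1a probe, the one used included, may pick up the near-identical Acaa1b.

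Cyp4a14, a fatty acid omega-hydroxylase and a strong PPAR-alpha target in mouse liver, measured -2.97, -2.15 and -1.08 in cells, against 3.21, 5.06 and 5.70 in liver. The gap was 126.1-fold (log2 -6.98 ± 0.35, adjusted p 3.65e-11 by limma). Its neighbour in function Cyp4a10 was above background on no cell array and at least 64.2-fold lower there (adjusted p 2.52e-11 by limma). Members of the Cyp4a family are alike enough that a probe for one may read another. Bdh1, which interconverts the 2 main ketone bodies, measured -0.72, -0.04 and 0.38 in cells, against 4.27, 5.49 and 5.84 in liver, and was 44.2-fold lower (log2 -5.46 ± 0.20, adjusted p 2.14e-12 by limma).

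The remaining 6 targets were all lower in the cells, with fitted log2 differences from -5.82 to -1.76. Fabp1, the liver fatty acid-binding protein, spread from -0.09 to 3.79 in cells with a median of 1.94, against 6.39 to 8.48 with a median of 7.93 in liver, a 49.6-fold difference (log2 -5.63 ± 0.41, adjusted p 2.18e-09 by limma). Fgf21, a hormone the liver secretes in fasting, was well above background on 3 of 8 cell arrays and on all 8 liver arrays. Its levels ran from -5.06 to -0.97 in cells, against 1.60 to 3.52 in liver. The highest cell values, -0.97 on ADSC array 10 and -1.27 on PBS array 13, lay on the arrays with the most exocrine pancreas signal. The part of that signal in them was not tested. The ranges did not overlap (adjusted p 3.85e-08 by limma), and the fitted log2 difference of -5.82 ± 0.53 rests on 5 cell values below background, so it gives no exact fold. Vnn1, a surface pantetheinase, was 23.8-fold lower in the cells (log2 -4.57 ± 0.23, adjusted p 3.77e-11 by limma). Angptl4, a secreted inhibitor of lipoprotein lipase, measured 1.27, 1.41 and 1.90 in cells, against 3.71, 4.46 and 5.20 in liver (8.26-fold, log2 -3.05 ± 0.20, adjusted p 5.51e-10 by limma). Pdk4, the kinase that shuts pyruvate dehydrogenase, and Acot1, a cytosolic acyl-CoA thioesterase, were the 2 lower members whose arrays overlapped between sample types. Pdk4 measured -4.74, -1.40 and -0.42 in cells, against -0.66, 0.07 and 0.79 in liver (3.60-fold, log2 -1.85 ± 0.49, adjusted p 0.00244 by limma), and Acot1 differed by -1.76 ± 0.26 (adjusted p 9.61e-06 by limma).

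**Figure D2:**
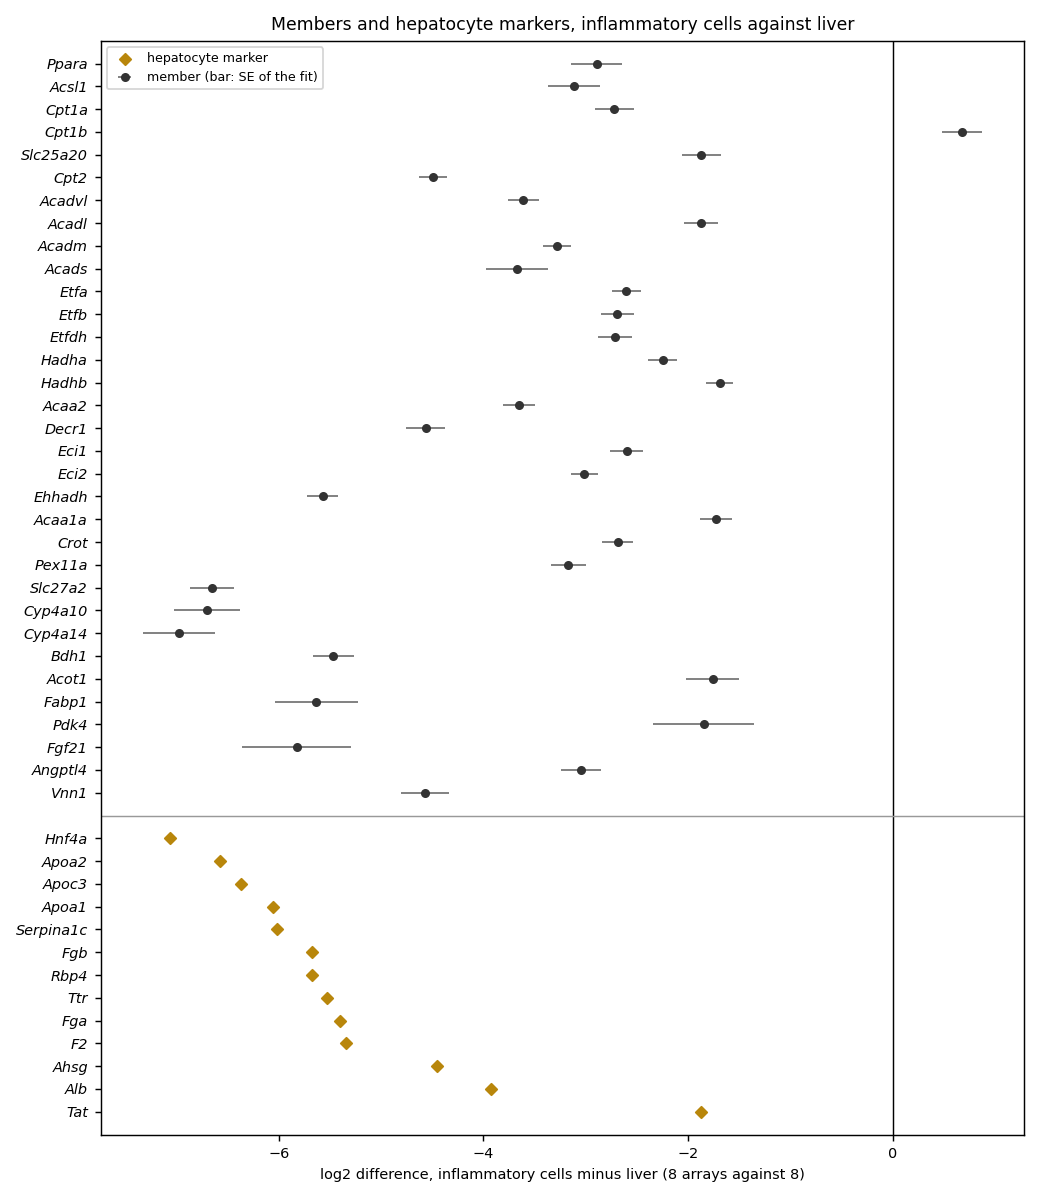
Log2 difference of inflammatory cells minus liver (horizontal axis, 8 arrays against 8) for the 33 members, with bars of 1 SE of the fit, and below the line for 13 hepatocyte markers, shown as diamonds. The members run from -6.98 (Cyp4a14) to 0.67 (Cpt1b), and 27 of them lie at or below the highest marker, Tat, at -1.88. Tat stands apart from the other markers, of which the highest is Alb at -3.93. Decr1, Cyp4a10 and Hnf4a were above background on no cell array.

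The cell signal can also be written as a percent of the liver signal of the same probe. For the members this had a median of 12.1% and ran from 0.793% for Cyp4a14 to 159.7% for Cpt1b. For 13 hepatocyte markers, the albumin and apolipoprotein genes among them, the median was 1.96%, from 0.750% for Hnf4a, above background on no cell array, to 27.2% for Tat. Tat stood apart, the next highest marker being Alb at 6.56%. Cyp4a14 and Slc27a2, which were above background in the cells, lay below the markers' median. So did the values of Cyp4a10, above background on no cell array, and of Fgf21, above it on 3 of 8, but their exact percent is not known. Slc25a20, Pdk4, Acot1, Acaa1a, Hadhb and Cpt1b lay above the highest marker, the first 5 between 27.3% and 30.9%. This rests on the brightest probe of each gene. The other Acaa1a probes gave log2 differences of -3.09 and -4.59, below the -1.88 of Tat, and the second Etfdh probe, at -0.52, lay above it. How much of the cell signal came from hepatocyte RNA was not tested.

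Of 71 other genes of the pathway, 69 had a probe and 68 were tested between sample types. In the cells 54 were lower and 7 higher, against 35.2% and 49% of all genes. Their median log2 difference was -2.32, against 0.36 for all genes. Amacr, a racemase for branched-chain acyl-CoA, differed by -4.98 ± 0.15 (adjusted p 3.79e-13 by limma), and Acot12, an acetyl-CoA thioesterase, was at least 46.0-fold lower (adjusted p 9.96e-13 by limma). Rxra, the partner of PPAR-alpha, and its coactivator Ppargc1a were lower too, by -3.70 ± 0.24 and -1.78 ± 0.21 (adjusted p 4.88e-10 and 6.49e-07 by limma). Hilpda, Ppard, Ucp2, Txnip, Cyp4a12a and Ncor1 were among the higher genes. Ppard, the related receptor PPAR-delta, was above background on no liver array and at least 2.63-fold higher in the cells (adjusted p 4.87e-09 by limma).

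In whole liver, no fatty acid oxidation gene could be told apart between ADSC and PBS. None of the 33 members passed the threshold by limma (4 arrays against 4), nor did any of the 17321 genes tested, 0% of them. At an unadjusted p under 0.05 there was 1 member, Decr1, against 4.65% of all genes. The log2 difference was above 0 for 26 of 33 members, against 59.8% of all genes, with a median of 0.14 against 0.04. The 2 treatments overlapped for every member, whereas 1.69% of all genes had every ADSC array above every PBS array and 1.24% every one below. For 32 members the estimate lay within 0.5 of 0, the exception being Fgf21.

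**Figure D3:**
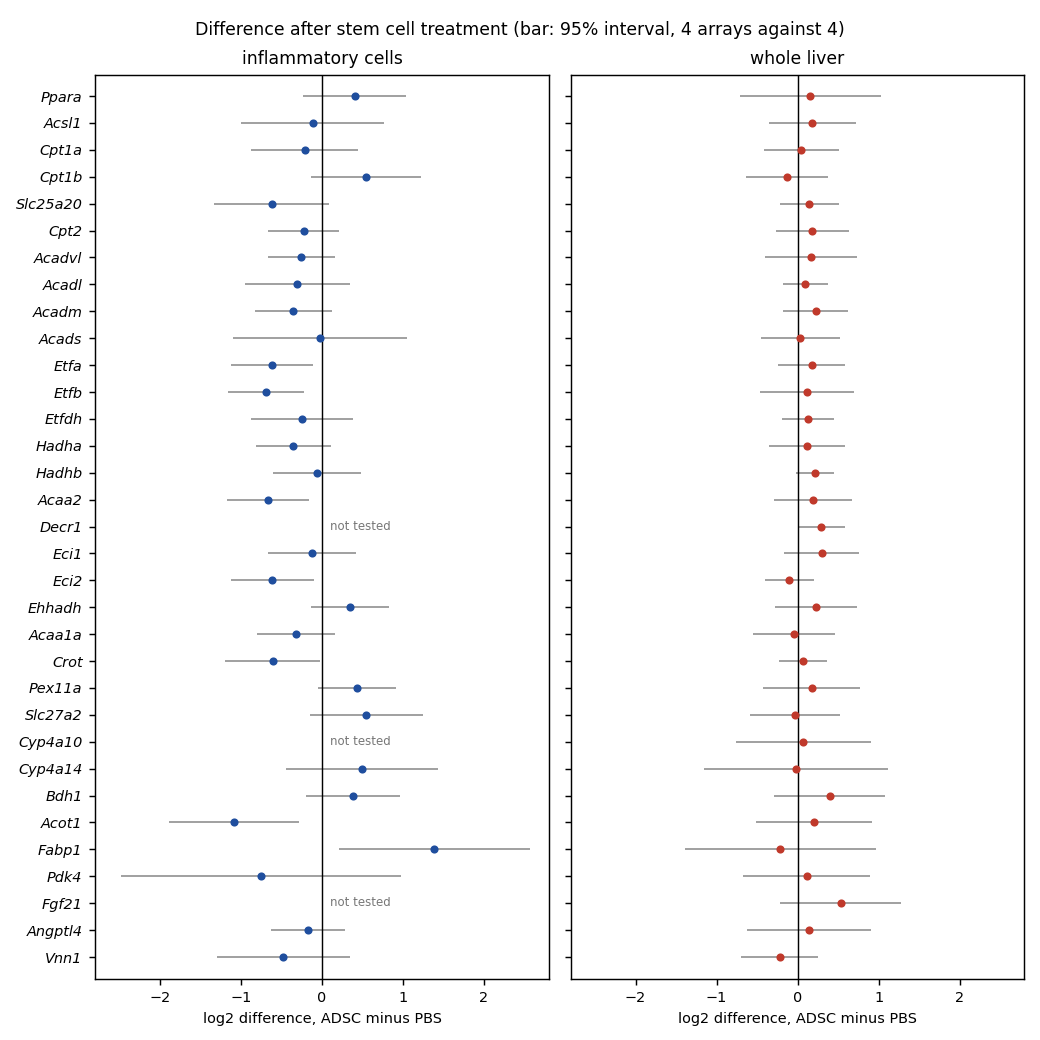
Log2 difference of ADSC minus PBS (horizontal axis) for each member in inflammatory cells (left panel) and whole liver (right panel), 4 arrays against 4, with bars of the 95% interval from limma. In liver all estimates lie between -0.22 (Vnn1) and 0.53 (Fgf21), while in the cells they run from -1.09 (Acot1) to 1.39 (Fabp1).

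Fgf21 measured 2.70, 2.27, 3.52 and 2.24 in ADSC livers, against 1.60, 2.58, 2.00 and 2.43 in PBS livers. ADSC array 9 was the highest and PBS array 11 the lowest, and the log2 difference of 0.53 ± 0.33 had a 95% interval from -0.21 to 1.28 (adjusted p 0.998 by limma). Decr1 measured 0.45, 0.11, 0.20 and 0.39 in ADSC livers, against -0.12, -0.18, 0.16 and 0.11 in PBS livers, a difference of 0.29 ± 0.13. Hadhb, the thiolase subunit of the trifunctional protein, differed by 0.21 ± 0.10, Eci1 by 0.30 ± 0.20, Bdh1 by 0.40 ± 0.30 and Acadm by 0.22 ± 0.18, all with an adjusted p of 0.998 by limma. These were the members with the smallest p, and their groups overlapped.

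Neither the regulator nor the classical targets passed. Ppara measured 3.51, 3.45, 4.32 and 4.12 in ADSC livers, against 4.16, 2.56, 4.23 and 3.82 in PBS livers. PBS array 12 was the low one, and the difference of 0.16 ± 0.38 had an interval from -0.72 to 1.03. Cyp4a14 measured 3.21, 5.07, 5.70 and 5.45 in ADSC livers, against 5.04, 4.82, 4.50 and 5.13 in PBS livers. Here ADSC array 7 was far below the other 7, and the difference of -0.02 ± 0.50 had an interval from -1.15 to 1.12 (adjusted p 0.999 by limma). Cpt1a differed by 0.05 ± 0.20, Ehhadh by 0.23 ± 0.22, Pdk4 by 0.11 ± 0.34 and Angptl4 by 0.14 ± 0.33 (adjusted p 0.998 by limma). The intervals of Cyp4a14 and Ppara thus reached past 1 on the log2 scale, whereas that of Acadm ran from -0.18 to 0.62 and that of Cpt1a from -0.42 to 0.51.

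Other pathway genes gave the same count. None of 66 tested in liver passed. The estimate was above 0 for 54, against 59.8% of all genes, and the median was 0.13, against 0.04. Cidec, a protein that enlarges lipid droplets, had the smallest p, with a log2 difference of 0.72 ± 0.25, followed by Acadsb, the short/branched-chain dehydrogenase, at 0.33 ± 0.14 and Hacl1, an enzyme of peroxisomal alpha oxidation, at 0.37 ± 0.21 (adjusted p 0.998 by limma for each). Rxra and Ppargc1a differed by -0.28 and 0.16.

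Within each treatment the livers differed among themselves, and many members shared the array on which they were lowest or highest. ADSC array 7 was the lowest of the 4 ADSC livers for 22 of 33 members, against 32.6% of all genes, and ADSC array 9 the highest for 21, against 31.8%. In the PBS livers array 12 was the lowest for 22 members, against 35.8% of all genes. Measured against the mean of all 8 livers, 31 members were above it on ADSC array 9 and 30 on ADSC array 10, but 4 on ADSC array 7 and 5 on PBS array 12. Some members ran the other way. Acot1, Pdk4 and Decr1 were highest on ADSC array 7 among ADSC livers, and Acot1, Pdk4, Crot, Fgf21 and Vnn1 were highest on PBS array 12 among PBS livers. The mean log2 level of 13 hepatocyte markers was also lowest on these arrays, at 6.31 on ADSC array 7 against 6.66 to 6.83 on the other ADSC livers, and at 6.07 on PBS array 12 against 6.48 to 6.81 on the other PBS livers. The summed neutrophil marker level was highest of its group on both, 48.6 and 752.6. The 75th percentile of the array's signal was highest of its group on both as well, at 416.1 and 551.9. The part of either list, or of that percentile, in the members' order was not tested.

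**Figure D4:**
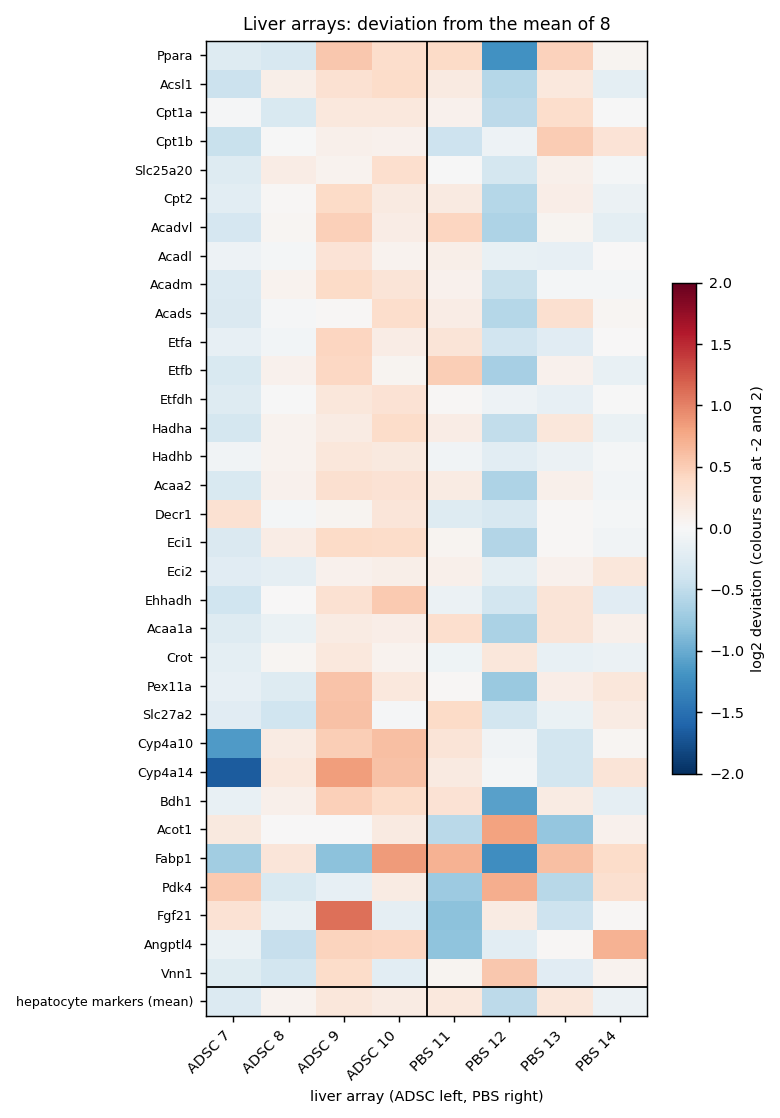
Deviation of each member (rows) from its mean over the 8 liver arrays (columns, ADSC left of the line and PBS right of it), in log2 units by colour with red above and blue below, and in the last row the mean of 13 hepatocyte markers. The columns of ADSC array 7 and PBS array 12 are blue for most rows, with red for Acot1 and Pdk4, while 31 rows are above the mean on ADSC array 9.

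The size of the small shift in liver changed with the arrays compared. Without PBS array 12 the member median was 0.03, and without ADSC array 9 or 10 it was 0.04 or 0.07, while without ADSC array 7 it was 0.26. Within the scan day that held 2 ADSC livers and 1 PBS liver, ADSC 7 and 9 and PBS 13, the median was 0.02. Within the slide that held 1 of each, ADSC 7 and PBS 13, it was -0.32. Both comparisons thus rest on ADSC array 7, the lowest ADSC liver for 22 of 33 members. PBS livers 11, 12 and 14 were scanned on a day without ADSC livers, and ADSC livers 8 and 10 on a day without PBS livers. Treatment and scan day therefore cannot be fully told apart in liver. The spread of the members was somewhat wider than that of other genes in liver, with a median SD of 0.29 against 0.18 for all genes above background in ADSC livers and 0.34 against 0.24 in PBS livers. Cyp4a14 varied most among ADSC livers, with an SD of 1.13, and Fabp1 among PBS livers, with an SD of 0.91.

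In the inflammatory cells, too, no member passed the threshold between ADSC and PBS. Of the 33, 30 could be tested, since Decr1 and Cyp4a10 were above background on no cell array and Fgf21 on 3. None of the 30 passed by limma (4 arrays against 4), where 1.22% of the 20165 genes tested did. The estimate was below 0 for 22 of 30 members, against 47.1% of all genes, and the median was -0.24, against 0.03 for all genes. The member median depended on the scaling: it was -0.11 with the 75th percentile taken over probes detected on all arrays, where the median of all genes was 0.15, and -0.13 with quantile normalization, where that of all genes was 0.02. At an unadjusted p under 0.05, 6 members were lower and 1 was higher, against 9.05% and 9.48% of all genes. Every ADSC array lay below every PBS array for 4 members, against 6.67% of all genes, and no member had the opposite order, which 3.69% of all genes had.

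The 4 members without overlap were Etfb, Etfa, Acaa2 and Eci2. Etfb, the beta subunit of the electron transfer flavoprotein, measured 3.59, 3.94, 3.83 and 3.80 in ADSC cells, against 4.23, 4.75, 4.62 and 4.33 in PBS cells, a log2 difference of -0.69 ± 0.21 (adjusted p 0.151 by limma). Etfa, the alpha subunit, measured 1.62, 1.18, 1.54 and 1.67 in ADSC cells, against 1.67, 2.17, 2.35 and 2.27 in PBS cells, and the difference was -0.61 ± 0.23 (adjusted p 0.21 by limma). Both subunits were thus lower on all 4 ADSC arrays, by a margin for Etfa of less than 0.01 between the nearest arrays. Acaa2 measured 3.19, 3.62, 3.40 and 3.47 in ADSC cells, against 3.71, 4.06, 4.54 and 4.03 in PBS cells (-0.67 ± 0.23, adjusted p 0.191 by limma). Eci2 measured 2.60, 2.81, 2.54 and 2.77 in ADSC cells, against 2.95, 3.28, 3.81 and 3.13 in PBS cells (-0.61 ± 0.23, adjusted p 0.215 by limma). PBS array 13, one of the arrays with exocrine pancreas signal, was the highest for Etfa, Acaa2 and Eci2.

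Other members with an unadjusted p under 0.05 overlapped. Acot1 measured 0.37, 0.11, 0.34 and 0.94 in ADSC cells, against 1.37, 2.43, 0.57 and 1.75 in PBS cells, an estimate of -1.09 ± 0.37 (adjusted p 0.182 by limma). Its probe may also read near-identical genes of the Acot family. Crot measured 1.00, 0.85, 0.81 and 0.78 in ADSC cells, against 0.87, 1.23, 1.99 and 1.78 in PBS cells, where the PBS arrays were the more scattered (-0.61 ± 0.27, adjusted p 0.258 by limma). Fabp1 had the opposite sign: 1.50, 3.79, 2.62 and 2.85 in ADSC cells, against 1.84, 1.41, 2.05 and -0.09 in PBS cells, a difference of 1.39 ± 0.54 (adjusted p 0.22 by limma). ADSC array 8 was the highest and PBS array 14 the lowest for Fabp1.

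**Figure D5:**
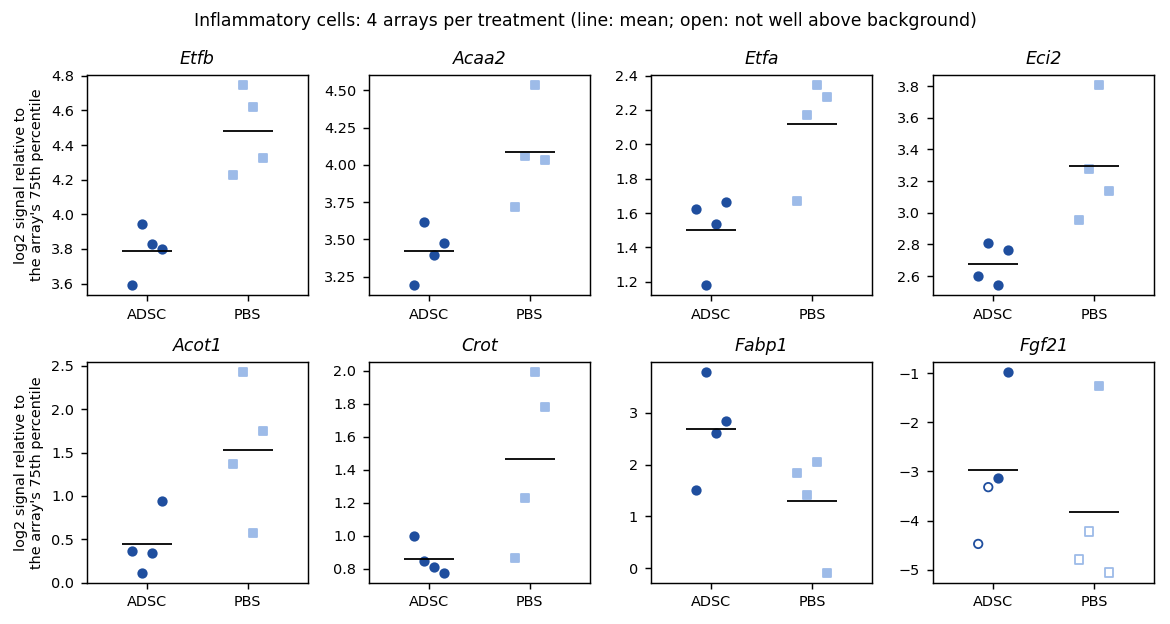
Log2 of signal over the 75th percentile of its array (vertical axis, a separate range in each panel) on the 4 ADSC and 4 PBS arrays of inflammatory cells for 8 members, with a line at the mean and open symbols for values not well above background. The groups do not overlap for Etfb, Acaa2, Etfa and Eci2 in the top row, and they overlap for Acot1, Crot, Fabp1 and Fgf21 below, with Fgf21 above background on 2 ADSC arrays and 1 PBS array.

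By role, the medians of the differences were -0.61 for electron transfer, -0.28 for the acyl-CoA dehydrogenases and 0.35 for the peroxisome. Ehhadh, Pex11a and Slc27a2 had estimates above 0 in the peroxisome, at 0.35 ± 0.22, 0.43 ± 0.22 and 0.55 ± 0.32. Ppara measured 0.79, 1.44, 1.07 and 1.02 in ADSC cells, against 0.72, 0.28, 1.42 and 0.28 in PBS cells, so that PBS arrays 12 and 14 were low and array 13 was not (0.40 ± 0.29, adjusted p 0.465 by limma). Cpt1a (-0.21 ± 0.30), Acadm (-0.35 ± 0.22) and Angptl4 (-0.17 ± 0.21) had estimates below 0, and Bdh1 (0.38 ± 0.26) and Cyp4a14 (0.49 ± 0.42) above 0, with adjusted p from 0.394 to 0.735 by limma. Pdk4 measured -2.06, -4.74, -1.43 and -0.42 in ADSC cells, against -0.87, -0.70, -2.68 and -1.37 in PBS cells, and ADSC array 8, the lowest, was not well above background (-0.75 ± 0.79, adjusted p 0.64 by limma). Fgf21 was not tested, since 5 of its 8 values were below background. Its highest values were on ADSC array 10 and PBS array 13, the arrays with the most exocrine pancreas signal.

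Markers of other cells differed between the same arrays. Of 10 neutrophil markers, 8 passed the threshold as lower in ADSC cells, with a median log2 difference of -3.83. The mean log2 level of 9 macrophage and Kupffer cell markers ran from 0.55 to 1.92 in ADSC cells, against 2.04 to 2.75 in PBS cells, and 1 of the 9 passed as lower (median -0.86). That of 5 B cell markers ran from 2.48 to 3.22 in ADSC cells, against 1.04 to 2.19 in PBS cells, and none passed (median 1.00). The mean log2 level of 13 hepatocyte markers was 1.10, 2.51, 1.39 and 1.31 in ADSC cells, against 0.96, 1.47, 0.89 and 0.06 in PBS cells, and none of the 12 tested passed (median 0.85). Their summed linear level ran from 107.3 to 294.1 in ADSC cells, against 50.4 to 157.5 in PBS cells. ADSC array 8 and PBS array 14, the extremes of Fabp1, were the extremes of this list as well. The part of these markers in the members' values was not tested. With arrays weighted by their agreement with their group, 9 members passed by limma, Etfb, Etfa, Acaa2 and Eci2 among the lower ones, as did 4462 of all genes. Without the 3 arrays rich in exocrine pancreas signal, ADSC 10, PBS 11 and PBS 13, ADSC arrays 7, 8 and 9 stood against PBS arrays 12 and 14. No member and none of 18769 genes passed there, and the member median was -0.43. Whether calls were lost through the smaller number of arrays was not tested. Etfb differed by -0.72 within the scan day that held 2 cell arrays of each treatment and by -0.81 within the day that held 2 ADSC arrays and 1 PBS array. Acot1 differed by -1.66 and 0.07 within those days, and Fabp1 by 1.02 and 0.68. The member median was -0.25 and 0.01 there, and within the 2 slides that held 1 array of each treatment it was -0.11 and -0.44. Within those slides Etfb differed by -0.28 and -1.16, Acot1 by -1.25 and -2.06 and Fabp1 by 1.96 and 0.09. Without PBS array 12 the member median was -0.15 and without ADSC array 8 it was -0.13.

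Of the other pathway genes, 58 were tested in the cells and none passed, against 1.22% of all genes. The estimate was below 0 for 36, against 47.1% of all genes, and the median was -0.18, against 0.03. For 10 of them the 4 ADSC values were all below the 4 PBS values, against 6.67% of all genes. For 0 of them they were all above, against 3.69%. Plin2, the coat protein of lipid droplets, came nearest to the threshold at 4.74 ± 0.39 in ADSC cells and 5.93 ± 0.30 in PBS cells (SD, n = 4 each), a log2 difference of -1.20 ± 0.26 (adjusted p 0.0565 by limma). Scp2, the thiolase and sterol carrier of peroxisomes, followed at -0.93 ± 0.24 (adjusted p 0.096 by limma) and Echs1, the short-chain enoyl-CoA hydratase of the mitochondrion, at -0.82 ± 0.23 (adjusted p 0.131 by limma). Rxra differed by -0.01 ± 0.39 and Ppargc1a by 0.73 ± 0.31 (adjusted p 0.251 by limma).

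Whether ADSC acted differently in the sample types was tested as the difference of the 2 differences, inflammatory cells minus liver, over all 16 arrays. None of the 33 members passed by limma, where 0.0316% of 22139 genes did. The estimate was below 0 for 25 members, against 51.9% of all genes, with a median of -0.31 against -0.03. The 25 include Decr1 (-0.48) and Cyp4a10 (-0.27), which were above background on no cell array. Their ADSC effect in cells cannot be read, and Fgf21 (0.33) was below background on most cell arrays. With only genes above background on every array, 28 members were left, and the median was -0.34, against -0.09 for all genes. At an unadjusted p under 0.05 there were 5 of the 33 members, all lower, against 6.65% of all genes. Acaa2 came first, at -0.67 in cells and 0.19 in liver, a difference of -0.86 ± 0.31 (adjusted p 0.389 by limma). Etfa followed at -0.79 ± 0.29 (adjusted p 0.39), Acot1 at -1.29 ± 0.52 (adjusted p 0.428), Etfb at -0.81 ± 0.33 (adjusted p 0.431), Crot at -0.67 ± 0.30 (adjusted p 0.482) and Acadm at -0.57 ± 0.27 (adjusted p 0.497), all by limma. For the probes used of Etfa, Etfb and Etfdh, the ADSC estimate was below 0 in cells and above 0 in liver, without the difference passing the test. Etfa kept these signs under every alternative, from 0.06 to 0.37 in liver and from -0.78 to -0.49 in cells. The signs of Etfdh, and that of Etfb in liver, were not stable. The second Etfdh probe gave 0.39 in cells and 0.16 in liver. Etfb in liver differed by -0.04 within the scan day that held both treatments and by -0.41 within the slide that did. That slide set ADSC array 7, the lowest ADSC liver for Etfb, against PBS array 13.

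The regulator and the targets of PPAR-alpha showed no common sign in this contrast. Ppara stood at 0.24 ± 0.50, Cyp4a14 at 0.51 ± 0.70, Ehhadh at 0.12 ± 0.30 and Fgf21 at 0.33 ± 1.07. Cpt1a stood at -0.26 ± 0.38, Bdh1 at -0.01 ± 0.41, Angptl4 at -0.31 ± 0.39 and Pdk4 at -0.87 ± 0.98. Fgf21 was below background on 5 of its 8 cell arrays and Pdk4 on 1. Of 68 other pathway genes none passed. The estimate was below 0 for 48, against 51.9% of all genes, and the median was -0.27, against -0.03. Plin2 (-1.41 ± 0.30, adjusted p 0.097), Acadsb (-1.16 ± 0.29, adjusted p 0.194) and Scp2 (-1.16 ± 0.32, adjusted p 0.236) had the smallest p by limma, and Rxra and Ppargc1a stood at 0.27 and 0.58.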

How the data were processed

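Total RNA labelled with Cy3 was measured on 16 one-colour Agilent arrays, 4 in each of 4 groups. Per the file headers, Agilent Feature Extraction made the deposited intensity of each spot, background-subtracted and detrended within the array and not scaled between arrays. The deposited value table held the same intensity on a linear scale, uncentred, with column medians between 32.2 and 97.4. Here control spots and outlier spots (71 to 124 of 43379 on an array) were left out, spots of a probe were averaged, and log2 intensity minus the array's 75th percentile over 41174 probes was used. Of these probes, 23374 were named through RefSeq accessions and the others kept the name in the file. The probe with the highest mean stood for a gene. A gene was tested where 4 or more arrays of the fit had it well above background, with limma 3.58.1 in R 4.3.3 (lmFit, eBayes). The p-values were adjusted by Benjamini-Hochberg over every gene in the fit and called at 0.05, and the steps were tested on simulated data. Alternatives covered scaling, background correction, the filter, probe averaging, slide and scan day blocks, array weights, the number in the titles as a block, and each array left out. In each comparison the members past the threshold were named, at most 15 and at least 6, by smallest p, with Ppara, Cpt1a, Acadm, Ehhadh, Cyp4a14, Bdh1, Fgf21, Pdk4 and Angptl4 wherever tested, and of the other pathway genes Rxra, Ppargc1a and the 3 with the smallest p. Some genes that the rule names are not reported here. Members at an extreme of their role were also named with levels. The members and lists were chosen with earlier results of these data known.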

Additional observations from a re-analysis of the deposited data

Results flagged for a closer look

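Of 132 sets of 4 arrays (33 members in 4 groups), 3 held an array set far apart from the other 3, where Dixon's test at its 95% level of 0.829 marks about 1 set in 20 by chance. Crot measured 4.08 on array 12 of the PBS livers, against 3.71 to 3.76 on the other PBS livers. Acads measured -3.64 on array 13 of the PBS inflammatory cells, against -1.48 to -1.27 on the others, and that array was not well above background for it. Angptl4 measured 1.90 on array 12 of the PBS inflammatory cells, against 1.41 to 1.47 on the others.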

How the results depend on the processing

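Between sample types the 32 lower members kept their call under each of 30 alternatives that tested them; Cpt1b lost its call under quantile normalization (log2 0.05, adjusted p 0.808 by limma), after normexp with quantile normalization (0.09, 0.314) and with its probes averaged (0.27, 0.177). The member median of -3.05 was -2.72 with the 75th percentile taken over probes detected on all arrays, -2.68 with quantile normalization, -2.82 with normexp, -2.55 with normexp and quantile normalization. The first of these moved the median of all genes to 0.68, against 0.36, and the split to 12285 higher and 6402 lower; testing only genes above background on every array gave 4856 and 5569.

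In liver no alternative called a member. With the slide as a fixed block, which rests on 1 slide with ADSC array 7 and PBS array 13, the median was -0.32. All-gene calls in liver were 13 with array weights and 1 with probes averaged, against 0.

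In the cells 1 member was called after normexp (Etfb, -0.84, adjusted p 0.038 by limma) and 9 with array weights: Slc25a20, Etfa, Etfb, Acaa2, Eci2 and Acot1 lower, Ppara, Pex11a and Fabp1 higher. Other pathway genes called were 2 after normexp, 1 with genes above background on every array, 1 with slide as a random block, 15 with array weights and 0 to 2 with an array left out (1 without PBS 13, 2 without ADSC 7). The median was -0.43 without the 3 arrays rich in pancreas genes, which left only arrays 12 and 14 of the PBS cells. Genes called in all, 246, became 140 with the percentile over detected probes (median of all genes 0.15, members -0.11), 376 after normexp, 115 without a filter, 0 with slide and 161 with scan day as fixed blocks, 819 with slide as a random block, 4462 with array weights (2634 higher), 0 without the 3 arrays and 71 to 504 with an array left out.

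For the difference of differences array weights called 2 members (Slc25a20, -1.15; Acot1, -1.50) and 4 other pathway genes. Normexp and the stricter filter called 1 other pathway gene each, and leaving out an array 0 to 1. The median was -0.54 without the 3 arrays. Genes called in all, 7, ranged from 0 to 914 (array weights). Deviations of same-numbered arrays from their group means correlated with r from -0.06 to 0.17, the highest match in 3 of 8. Liver and cells are different sample types, so these values cannot show whether the numbers pair the arrays. With the replicate block 33 members were called between sample types, as were 18397 of all 22139 genes. In the difference 0 members and 0 genes in all were called with that block. The member medians were -3.05 and -0.31.

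The cause of these changes was not tested. With 4 arrays a group, members below background in the cells (Decr1, Cyp4a10, most Fgf21 arrays) cannot be compared between treatments there, and liver intervals of Cyp4a14 and Fabp1 exceed 1 on the log2 scale.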
